A study of Mus musculus with 68 samples.

Results

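The genes described are the collagens, laminins, integrins and fibronectin of the mouse array. A gene was taken as a member where its platform symbol is Col with a digit and a further a, Lama, Lamb or Lamc with a digit, Itga or Itgb with a digit, or Fn1. There were 76 such genes among 18194 genes that have a probe set with 1 symbol, and they were covered by 156 probe sets. They comprised 42 collagens, 10 laminins, 11 integrin alpha chains, 9 integrin beta chains and Fn1. The other 3, Itgb1bp1, Itgb1bp2 and Itgb3bp, are proteins named for binding an integrin tail and matched by name only. Integrins whose symbol has no digit, such as Itgav, lie outside the rule.

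Fibronectin, laminins and collagens are secreted matrix proteins, and laminins and type IV collagen build the basement membrane at the pial surface of the cortex. Integrins are receptors made of 1 alpha and 1 beta chain that span the membrane and bind these proteins. Apical progenitors (APs) of the ventricular zone keep a long basal process whose endfoot rests on that basement membrane. Intermediate progenitors (IPs) mostly do not keep this contact.

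Each of 68 arrays held the amplified cDNA of 1 cell from CD1 mice. There were 30 cells from the dorso-lateral cerebral wall at E11 and 28 from fragments of its ventricular and subventricular zones (VZ/SVZ) at E16. Cells were picked at random, but the cDNAs put on arrays were then chosen for their quality and for progenitor markers, so shares of cells hold for the arrayed cells only. The other groups were 3 APs of E12, 3 APs of neurospheres grown for 3 days in vitro from E11 cells, and 4 APs of E14 that had been electroporated 3 days earlier with pCAG-NICD, the active Notch intracellular domain, and pEF-p18, a cell-cycle inhibitor (NICD/p18 APs). The labels do not type the E11 and E16 cells. They were therefore clustered within each stage on 52 marker genes, none of them a member, which gave 24 AP-like, 2 IP-like and 4 neuron-like cells at E11, and 17 AP-like, 8 IP-like and 3 neuron-like cells at E16. The 4 neuron-like E11 cells also had 10 of the IP markers at or above the 20-copy signal in at least 2 cells, beside 15 neuron markers. No label names an embryo or a culture, so each group counts as 1 sample, no test between groups was possible, and SDs and intervals describe cells only.

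Signals are given as log2 of the normalized array intensity. The 20-copy signal, 9.72 on this scale, is the median over the 68 arrays of a spiked bacterial RNA (phe) added at 20 copies per cell. That spike itself reached this signal in 34 of 68 cells, so a transcript at 20 copies would pass in some cells and not in others. The probe set of the 100-copy spike (dap) at its 3-prime end had a median of 11.95 and that at its 5-prime end 2.49. These medians were 9.72 and 2.84 for phe, but 13.09 and 12.93 for the 1000-copy spike (lys). Probe sets far from a transcript's 3-prime end can thus be poorly read, though those of lys were not. The 10 arrays of APs taken at E12, from neurospheres and after NICD/p18 all had a trimmed mean of 500, those of E11 and E16 had trimmed means of 47.5 to 297.5, and this scaling cannot be told apart from the conditions. In the NICD/p18 arrays the phe spike had a median of 11.62, against 9.47 in AP-like E11 and 9.78 in AP-like E16 cells. Of 10 endothelial genes, 8 never reached the 20-copy signal, and the summed excess over it was 0 to 0.0831 log2 units per cell at E11 and 0 at E16. Blood and microglia genes stood out in single AP-like cells, with summed excesses of at most 11.7 at E11 and 3.75 at E16 and medians of 0. Of 12 pericyte and meningeal genes 4 reached it in at least 1 cell, with summed excesses of at most 0.184 in AP-like E11 cells, from 1 gene, and 3.04 in AP-like E16 cells, from 2 genes, and medians of 0. The part of these markers in the results was not tested.

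Promoters in the reference table could be matched for 7 of the 11 named members, from RefSeq on GRCm38.p6. They are shown for the integrin chains Itgb8 and Itgb5, read in more AP-like cells at E16, and for both starts of Col18a1, read in more at E11. Each runs from 250 bases before the start to 50 after it, and capitals mark a GC box (GGGCGG or CCGCCC) or a CCAAT box (CCAAT or ATTGG) on either strand.
Itgb8, chr12:119238227-119238526, minus strand: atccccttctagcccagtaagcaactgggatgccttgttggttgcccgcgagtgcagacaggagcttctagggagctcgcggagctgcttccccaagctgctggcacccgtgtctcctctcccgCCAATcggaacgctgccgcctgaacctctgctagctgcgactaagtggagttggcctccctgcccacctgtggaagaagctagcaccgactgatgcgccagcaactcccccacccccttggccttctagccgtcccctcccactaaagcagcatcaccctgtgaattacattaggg
Itgb5, chr16:33829415-33829714, plus strand: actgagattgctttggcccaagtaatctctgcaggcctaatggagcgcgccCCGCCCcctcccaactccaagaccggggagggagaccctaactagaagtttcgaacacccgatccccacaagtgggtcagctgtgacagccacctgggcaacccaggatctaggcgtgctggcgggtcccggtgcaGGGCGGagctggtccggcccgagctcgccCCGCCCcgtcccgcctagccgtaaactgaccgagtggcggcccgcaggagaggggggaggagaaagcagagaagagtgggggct
Col18a1, upstream start, chr10:77166481-77166780, minus strand: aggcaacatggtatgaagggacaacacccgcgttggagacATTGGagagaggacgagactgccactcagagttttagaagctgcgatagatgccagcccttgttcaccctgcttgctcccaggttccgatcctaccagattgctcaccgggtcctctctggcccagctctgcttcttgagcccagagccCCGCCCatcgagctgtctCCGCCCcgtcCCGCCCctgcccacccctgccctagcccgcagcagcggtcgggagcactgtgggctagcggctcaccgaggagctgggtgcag
Col18a1, downstream start, chr10:77113656-77113955, minus strand: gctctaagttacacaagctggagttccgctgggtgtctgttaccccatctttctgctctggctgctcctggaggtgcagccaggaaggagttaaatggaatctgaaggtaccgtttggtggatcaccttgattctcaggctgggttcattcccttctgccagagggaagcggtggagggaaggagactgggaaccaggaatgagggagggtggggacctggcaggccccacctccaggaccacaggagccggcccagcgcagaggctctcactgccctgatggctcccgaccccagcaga
The GC box was matched 3 times in the Itgb5 window and 3 times at the upstream Col18a1 start, and 0 times in the Itgb8 window and at the downstream Col18a1 start. Among 32851 promoters of this length 35.7% held a GC box and 37.4% a CCAAT box. The CCAAT box had 1 match each in the Itgb8 and upstream Col18a1 windows. No TATA box (TATAAA), found in 13.6% of promoters, and no CACGTG E-box, found in 7.15%, was matched in these 4 windows. The GC content was 60.7% for Itgb8, 65.7% for Itgb5 and 63.3% and 59.7% for the Col18a1 starts, with a median of 52.7% over the table.

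Few members were read in these cells. Of the 76 genes, 37 reached the 20-copy signal in at least 1 cell, or 48.7% against 59.3% of all genes, and 7 did so in 10 or more cells, or 9.21% against 31.6%. With any probe set of a gene counted, 10 members did so in 10 or more cells. The 39 that never reached it included the fibrillar collagens Col1a1 and Col3a1, the basement membrane collagen Col4a1, with a highest signal of 9.36 in any cell, the vascular laminin Lama4, and the receptor chains Itga3, Itga4, Itgb3 and Itgb4. By family, 20 of 42 collagens, 6 of 10 laminins, 5 of 11 alpha chains, 3 of 9 beta chains, Fn1 and 2 of the 3 binding proteins reached it. Fn1 and Itgb8 led with 33 of 68 cells each, followed by Itga6 with 32, Col18a1 with 20, Lamc1 with 17 and Col2a1 with 15.

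**Figure D1:**
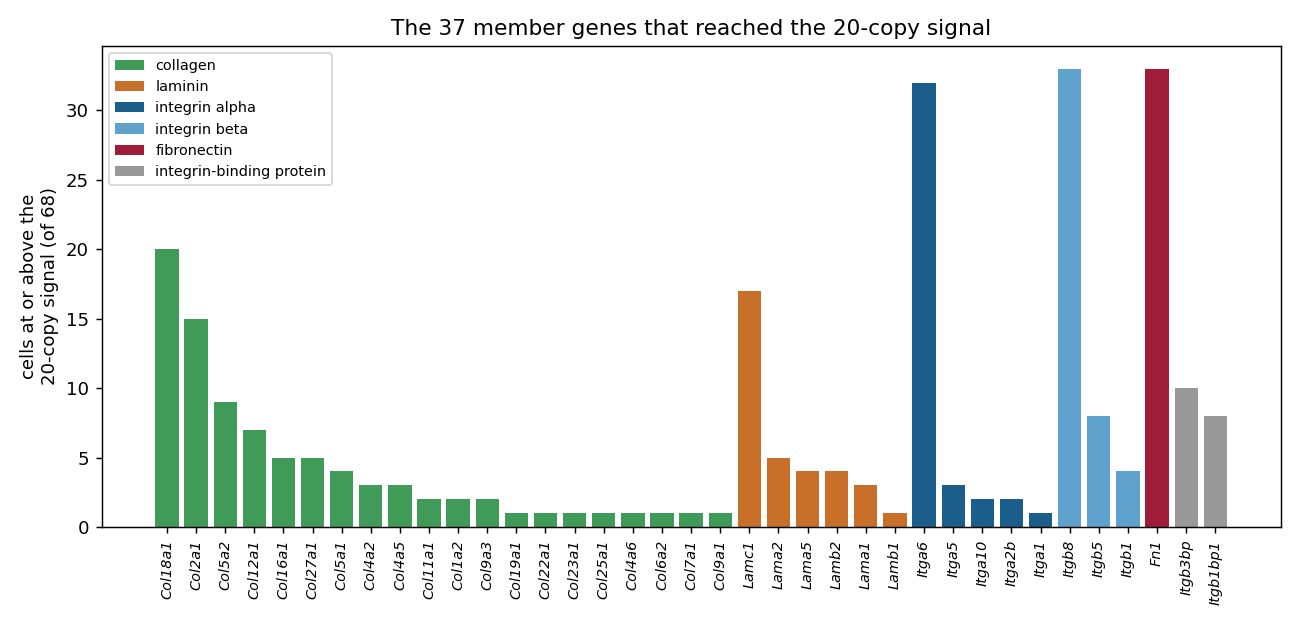
Number of the 68 cells (vertical axis) in which each of the 37 detected member genes reached the 20-copy signal, coloured by family, with 1 bar a gene. Fn1 and Itgb8 reach 33 cells, Itga6 reaches 32, and most collagens stay under 10.

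A cell held few of these genes at once. AP-like E11 cells had 1 to 8 members at or above the 20-copy signal with a median of 4.5, and AP-like E16 cells 1 to 8 with a median of 4. The E11 cell with 8 was 31i, which the study's methods call low in quality and left out of most analyses. The other 23 AP-like E11 cells had 1 to 7 with a median of 4. The medians were 3.5 in IP-like E16 cells, 3 in E12 APs, 6 in neurosphere APs and 6.5 in NICD/p18 APs. The neuron-like E11 cells held 0 to 1, with a median of 0, and the 3 of E16 held 1 to 2. Their totals over all genes had medians of 2698 and 2749, against 2796 in AP-like E11 cells. Normalizing all arrays to one distribution holds these totals near alike, so they do not show that genes were read equally well. The 2 IP-like E11 cells held 1 and 4.

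**Figure D2:**
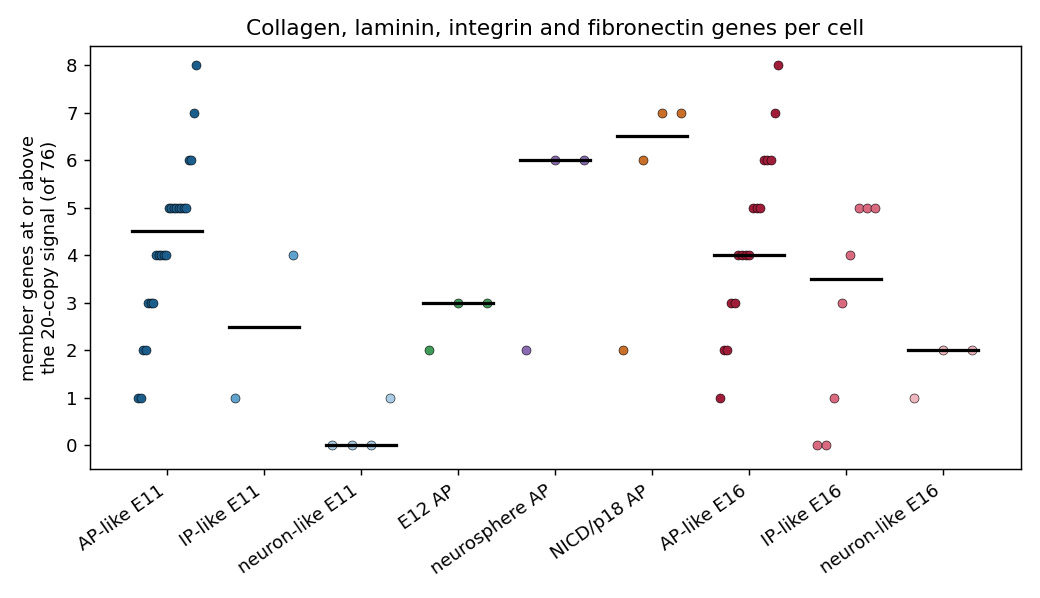
Member genes at or above the 20-copy signal in each cell (points, vertical axis) by class or group, with the median as a bar. The neuron-like E11 cells lie at 0 or 1, below the median of 4.5 in AP-like E11 cells.

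The first comparison asked which members differ between E16 and E11. Stage cannot be told apart here from dissection, which took the cerebral wall at E11 and VZ/SVZ fragments at E16. A gene was called where means floored at the 20-copy signal differed at least 2-fold. By this rule no member of the 37 was called between all E16 and all E11 cells, where 0.473% of 10789 genes were higher and 0.324% lower. None was called between AP-like cells either, where 0.825% of genes were higher and 0.621% lower. The members' median difference was 0.00 in both, as it was over all genes. Most genes lie at the floor in most cells, which holds these medians near 0. A second rule, thought of only after the members' counts had been seen, took a difference of at least 30 percentage points in the share of cells at or above the 20-copy signal. It called Col18a1 and Fn1 lower between all E16 and all E11 cells, where 2.13% of genes were higher and 2.02% lower. Between AP-like cells it called Itgb5, Itgb8 and Lamc1 higher at E16 and Col18a1 and Fn1 lower, or 3 and 2 of 37, beside 3.44% of all genes higher and 3.47% lower. The values below are therefore descriptions.

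Fn1 encodes fibronectin, a soluble and matrix glycoprotein bound by several integrins. In AP-like E11 cells its signal ran from 6.46 to 12.25 with a median of 10.38, and 20 of 24 cells (83.3%, exact 95% binomial interval 62.6 to 95.3) reached 20 copies. In AP-like E16 cells the lowest was 2.35, the median 6.72 and the highest 12.17, and 4 of 17 did so (23.5%, 6.81 to 49.9). The ranges overlapped, and the highest E16 cell was close to the highest of E11. The difference of floored means was -0.71 and that of unfloored means -3.33. The mean was 10.45 ± 1.21 (SD between cells, n = 24) at E11 and 7.12 ± 2.94 (n = 17) at E16. A second Fn1 probe set never reached 20 copies, with a highest signal of 9.58.

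Col18a1 encodes collagen XVIII, a heparan sulphate proteoglycan of basement membranes. Its signal in AP-like E11 cells ran from 0.68 to 12.61 with a median of 10.45, and 13 of 24 cells (54.2%, 32.8 to 74.4) reached 20 copies. The AP-like E16 cells lay between 1.05 and 9.86 around a median of 2.51, and 1 of 17 did so (5.88%, 0.149 to 28.7). Most E16 cells thus lay at the low end of the E11 range. The floored means differed by -0.75. The second Col18a1 probe set gave 4 of 24 cells at E11 and 0 of 17 at E16, which allows a share of up to 17.6%.

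Col2a1, a fibrillar collagen known from cartilage, reached 20 copies in 9 of 24 AP-like E11 cells and 3 of 17 of E16, with medians of 7.99 and 5.26. Its floored means differed by -0.01, since the 3 E16 cells were high, up to 12.69. Col12a1, a fibril-associated collagen, reached it in 4.17% of AP-like E11 and 29.4% of AP-like E16 cells. Col4a5, a chain of type IV collagen, gave 0 of 24 and 2 of 17 cells on the probe set with the highest mean, but 5 of 24 and 6 of 17 on its other probe set, so its probe sets disagree on how often it is read. Col27a1, a fibrillar collagen, reached 20 copies in 3 of 24 AP-like E11 cells and 0 of 17 at E16. Col16a1, another fibril-associated collagen, did so in 0 of 24 and 2 of 17.

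Lamc1 encodes the gamma-1 chain shared by most laminins. Its signal in AP-like E11 cells ran from 0.54 to 11.43 with a median of 4.08, with 3 of 24 cells (12.5%, 2.66 to 32.4) at or above 20 copies. In AP-like E16 cells the range was 0.62 to 12.15 and the median 9.72, and 8 of 17 cells (47.1%, 23 to 72.2) reached it. Both classes covered nearly the same range, and the floored means differed by 0.46. Its second probe set never reached 20 copies. Lama2, the alpha-2 chain of laminin, was at or above it in 0 of 30 E11 cells, which allows a share of up to 10%, and in 5 of 28 E16 cells, 3 of them AP-like and 2 neuron-like. A laminin needs an alpha, a beta and a gamma chain, and of the 17 cells with Lamc1, 6 also had an alpha chain and 2 a beta chain at this signal.

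**Figure D3:**
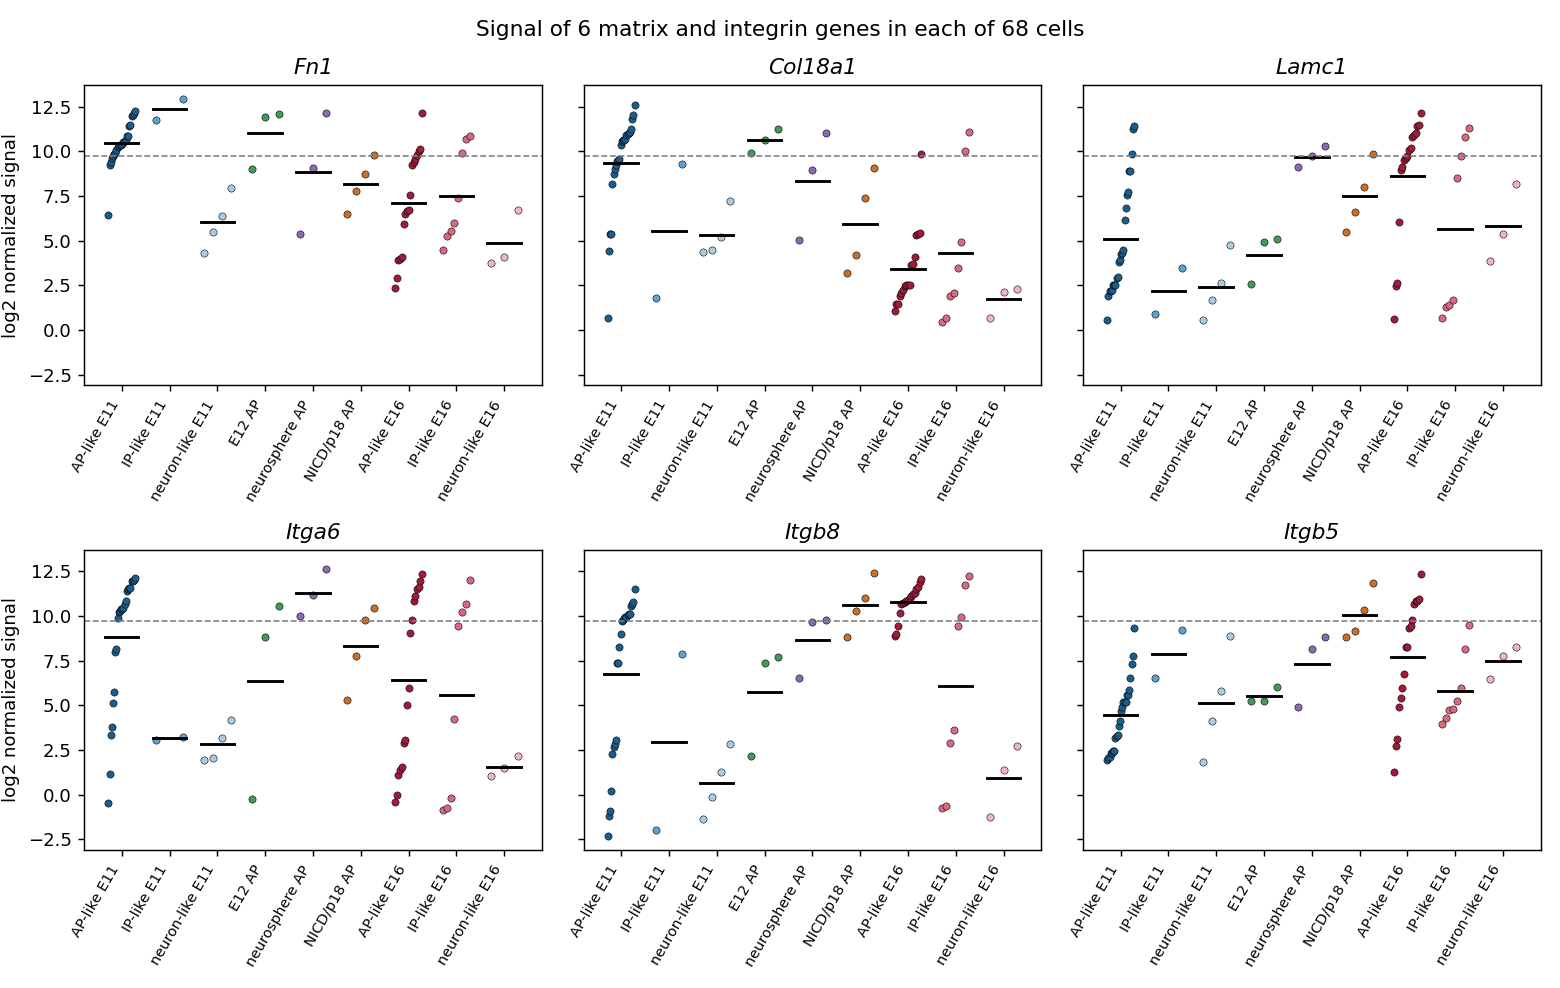
Log2 normalized signal (vertical axis) of 6 members in each of the 68 cells, by class or group, with the mean as a bar and the 20-copy signal of 9.72 as a dashed line. Fn1 and Col18a1 lie over the line mostly in AP-like E11 cells, and Itgb8 in 14 of 17 AP-like E16 cells.

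Among the receptors, Itgb8, the beta chain that pairs with the alpha-V chain and binds latent TGF-beta, had signals of -2.34 to 11.52 with a median of 9.38 in AP-like E11 cells. In AP-like E16 cells they ran from 8.91 to 12.1 with a median of 10.91. The share of cells at 20 copies was 12 of 24 (50%, 29.1 to 70.9) and 14 of 17 (82.4%, 56.6 to 96.2). The E11 cells fell into low and high signals, whereas no AP-like E16 cell was below 8.91. The floored means differed by 0.90, the largest rise among the members in this comparison but short of 2-fold. Itgb8 has a single probe set on the array.

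Itgb5, the beta chain of a vitronectin receptor, was below 20 copies in all 24 AP-like E11 cells (1.96 to 9.34, median 4.42), which allows a share of up to 12.5%. This limit bounds the share from above only and is computed otherwise than the interval that follows, so they cannot be compared. In AP-like E16 cells the range was 1.25 to 12.34 and the median 8.29, and 6 of 17 (35.3%, 14.2 to 61.7) reached the signal. The floored means differed by 0.42. Its other probe sets reached 20 copies in 11, 7 and 7 of 68 cells, against 8 for the one used here. The most often read gave 8 of 17 AP-like E16 cells and another 6. Counts of Itgb5 in E11 and IP-like cells are given for the one used here only.

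Itga6, the alpha chain of laminin receptors, reached 20 copies in 16 of 24 AP-like E11 cells (66.7%, 44.7 to 84.4) with signals from -0.47 to 12.13 and a median of 10.4. In AP-like E16 cells 7 of 17 (41.2%, 18.4 to 67.1) did so, with signals from -0.42 to 12.36 and a median of 5.99. These ranges were almost the same, and the floored means differed by -0.25. Its other probe set reached 20 copies in 1 of 68 cells. Itgb1, the beta chain that Itga6 commonly pairs with, did so in 4 of 68 cells on the probe set that stands for it, and all 4 also had Itga6. With any probe set counted, Itgb1 did so in 5 cells. Itgb3bp, a kinetochore protein also named for binding integrin beta-3, did so in 3 of 24 and 0 of 17.

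**Figure D4:**
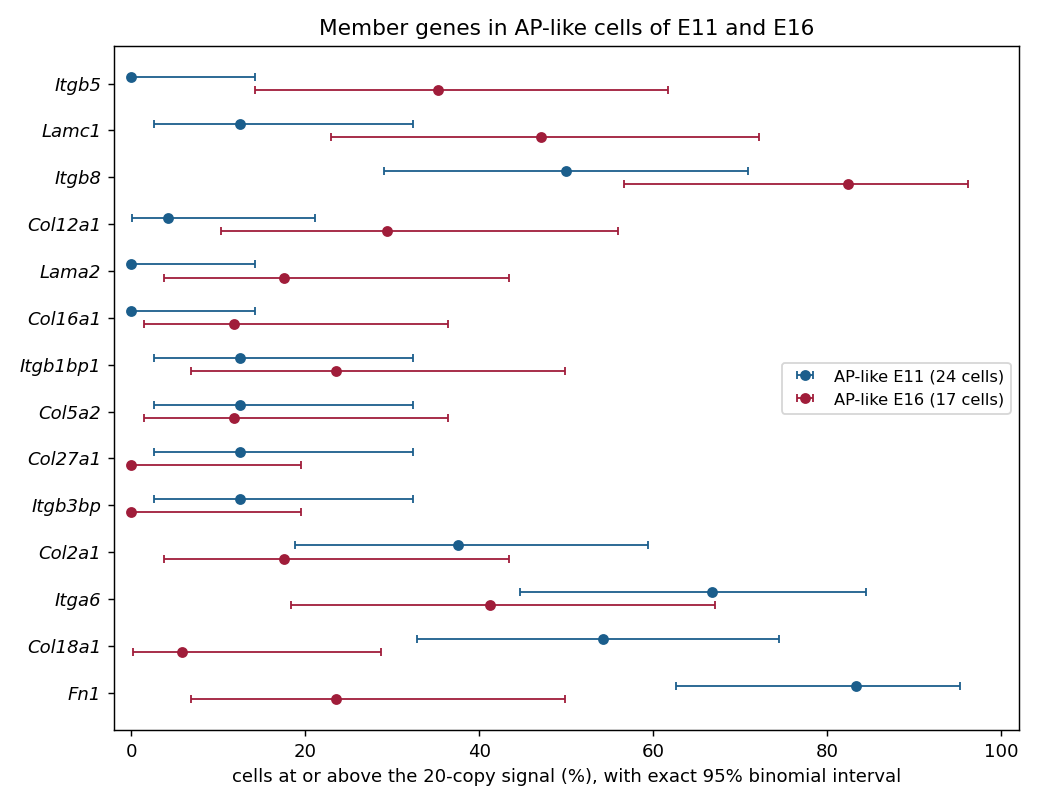
Share of AP-like cells (horizontal axis, percent) at or above the 20-copy signal at E11 and E16 for the members read in at least 5 of 68 cells, with exact 95% binomial intervals that cover counting error only. The intervals of Fn1 and of Col18a1 do not overlap between stages, while those of Itga6 and Itgb8 do. These intervals treat cells as replicates, though no label names an embryo. How often they fail to overlap over all genes was not tested, so this sets no member apart.

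The genes around the members were read from lists of matrix and adhesion genes. Between AP-like E16 and AP-like E11 cells 0 of 18 tested genes of focal adhesion and integrin signalling, 0 of 16 of collagen processing and 0 of 11 metalloproteinases and inhibitors passed the 2-fold rule in either direction. Of 22 basement membrane and laminin receptor genes 15 were tested and 1 was higher. It was Sparc, a collagen-binding matricellular protein, read in 5 of 24 and 13 of 17 cells with a floored difference of 1.15. Of 7 other integrin ligands 2 were higher. Mfge8, a secreted ligand of alpha-V integrins, was read in 3 of 24 and 16 of 17 cells with a difference of 2.38, and Tnc, the matrix protein tenascin C, in 0 of 24 and 17 of 17 with a difference of 2.16. The lists' medians were 0.14 for focal adhesion, 0.10 for basement membrane, 0.03 for collagen processing, 0.00 for metalloproteinases and 0.03 for the ligands, beside 0.00 over all genes. The floor draws these medians towards 0 as well.

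The second comparison set IP-like against AP-like cells of one stage. At E16 no member was called by the 2-fold rule, where 0.556% of genes were higher and 0.547% lower. By the 30-point rule Itgb5 and Itgb8 were lower, beside 4.41% of genes higher and 3.49% lower. Itgb8 ran from -0.75 to 12.26 with a median of 6.54 in the 8 IP-like cells, and 3 of 8 reached 20 copies against 14 of 17 AP-like cells. Itgb5 reached it in 0 of 8, which allows a share of up to 37.5%. Fn1, Itga6 and Lamc1 were each at or above it in 3 of the 8. Sparc, Tnc and Mfge8 were lower in IP-like E16 cells by floored differences of -1.31, -1.43 and -1.21.

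At E11 Fn1 was called higher in IP-like than in AP-like cells, where 3.20% of genes were higher and 2.30% lower. The 2 IP-like cells had signals of 12.95 and 11.75, and the floored difference was 1.73. This call rests on how the cells were clustered. It was absent under all 6 other cuts looked at that gave an IP-like E11 class, where the difference was -0.07 to 0.81, and under the planned classes from all probe sets (0.81). With the floor at the 100-copy spike it was absent too (0.47), but that floor is 11.95 and no member signal exceeded 12.95, so no member could pass. Itga6 was at 3.25 and 3.06 in these cells, and the phe spike had a median of 10.66 in them against 9.47 in AP-like E11 cells. By the 30-point rule 3 members were higher and 4 lower, beside 13.5% and 10.8% of genes.

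In the 7 neuron-like cells of both stages Fn1, Col18a1, Itga6, Itgb8, Itgb5 and Lamc1 were at or above 20 copies in 0 cells, which allows a share of up to 42.9%. Itga6 was between 1.05 and 4.19 in them, while its other probe set was at 9.91 in 1 E11 cell. Lama2 was at 11.06 and 11.15 in 2 of the 3 E16 cells and at 3.81 in the other. Besides it, Col11a1, Itgb1bp1 and Itgb3bp were each at or above 20 copies in 1 E16 cell, and Itga2b, an alpha chain known from platelets, in 1 E11 cell.

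The third comparison took the APs of E12, of neurospheres and of the NICD/p18 cells. The neurosphere and NICD/p18 cells differ from E11 and E12 cells in age as well as in culture or treatment, and these cannot be told apart. Against AP-like E11 cells no member passed the 2-fold rule in any of the 3 groups. Higher and lower calls over all genes made up 0.992% and 0.436% for E12, 1.74% and 1.02% for neurospheres and 2.93% and 2.85% for NICD/p18 APs. With values as deposited, or with the E11 and E16 arrays normalized apart from the rest, 3, 3 and 6 members passed it instead. As deposited these made up 8.33%, 8.33% and 16.7% of the members tested, beside 22.2%, 21.7% and 20.7% of all genes, and normalized apart 7.32%, 7.32% and 14.6%, beside 23%, 22.5% and 21.5%. These comparisons thus depend, for genes at large, on how the arrays are scaled. Single cells mattered too. Without E12 replicate 2 Fn1 was called, without neurosphere replicate 3 Itga6, and without NICD/p18 replicates 1, 2 or 3 there were 1, 2 and 3 calls. By the 30-point rule 1 member was higher and 3 lower for E12 (8.28% and 5.27% of genes), 8 and 2 for neurospheres (9.45% and 6.93%) and 4 and 2 for NICD/p18 APs (9.21% and 9.51%). In the 3 E12 APs Col18a1 had signals of 11.27, 9.93 and 10.65, all over 20 copies. Fn1 was at 12.07, 8.99 and 11.93 there and Itgb8 at 2.19, 7.36 and 7.68. So Fn1 and Col18a1 were mostly high and Itgb8 was low in these cells.

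Neurosphere APs against E12 APs, which were scaled alike, gave Itga6 as higher, where 2.07% of genes were higher and 2.12% lower. Itga6 was at 11.2, 12.66 and 10.02 in the neurosphere cells and at 10.54, -0.24 and 8.84 in the E12 cells, a floored difference of 1.30. The groups overlapped, since 1 E12 cell exceeded the lowest neurosphere cell. The call was lost without neurosphere replicate 2 and with the mean over the gene's probe sets. It was also lost with the floor at the 100-copy spike, but no member could pass the rule there. Without E12 replicate 2 or neurosphere replicate 1 Fn1 was called lower as well. Lamc1 was at 9.73, 9.11 and 10.27 in neurosphere APs and at 2.55, 5.07 and 4.91 in E12 APs, without overlap, but its floored difference was 0.19 because the neurosphere signals lay near the floor. How often groups this small fail to overlap over all genes was not tested, so this sets no member apart. Fn1 varied from 5.35 to 12.12 between the neurosphere cells.

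NICD/p18 APs against E12 APs gave Itgb8 and Col27a1 as higher and Fn1 as lower, where 3.14% of genes were higher and 4.03% lower. Itgb8 was at 12.39, 8.82, 10.29 and 10.99 in the NICD/p18 cells, every one above the 3 E12 cells, with a floored difference of 1.13. Col27a1 was at 11.53, 4.97, 7.3 and 11.94 against 4.47, 3.75 and 4, a floored difference of 1.01 that 2 cells carried. Fn1 was at 7.76, 8.71, 9.78 and 6.51, with a floored difference of -1.51. Col18a1 reached 20 copies in 0 of 4 cells, at 7.37, 9.04, 4.21 and 3.2, against 3 of 3 E12 cells, and Itgb5 in 2 of 4, at 8.83, 10.35, 9.14 and 11.83. Without NICD/p18 replicate 1 neither Itgb8 nor Col27a1 was called and Col16a1 was, and without replicate 4 Col27a1 was not. With each array scaled to its 1000-copy spike (lys), Itgb8 and Col27a1 were not called, while Fn1 and Col18a1 were lower. With the mean over probe sets the call of Col27a1 was lost. With the floor at the 100-copy spike none of the 3 calls was left, but no member could pass the rule there. Fn1 stayed lower with each of the 7 cells left out in turn. Itgb8 and Itgb5 lay above, and Fn1 and Col18a1 mostly below, their E12 signals. How often 4 cells all lie above 3 others over all genes was not tested, so such separation sets no member apart. The NICD/p18 cells were of E14, so stage and treatment cannot be told apart here. Col2a1 was at 11.93, 10.03, 8.92 and 8.77 against at most 5.26 in E12 cells, Col16a1 reached 20 copies in 2 of 4 and Itgb3bp in 2 of 4. Pdgfrb, a pericyte marker, was at or above 20 copies in 3 of these 4 cells and in 0 of the E12 cells. The summed excess of the 12 pericyte and meningeal genes was 0 to 1.93 per cell in NICD/p18 APs and 0 in E12 APs, and that of the endothelial genes was up to 2.23, with a median of 0. Of the 21 neuron markers 4 were higher in NICD/p18 than in E12 APs, namely Dcx, Neurod2, Neurod6 and Map2, and the list's summed excess was 1.79 to 23.9 with a median of 11.6, against 0.734 to 4.39 with a median of 2.14. Of the 17 AP markers 6 were higher and 1 lower, and that list's summed excess had a median of 30.8 against 25.3. The part of these lists in the results was not tested, nor was that of the higher spike signal. By the 30-point rule 5 members were higher and 3 lower, beside 10.2% and 18.2% of genes, and between neurosphere and E12 APs 9 and 4, beside 19.9% and 20.1%.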

How the data were processed

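Single cells were lysed with spiked bacterial RNAs and their cDNA amplified and hybridized to Affymetrix mouse arrays. The intensity values deposited by the authors came from MAS5, per the submitters' processing notes, on a linear scale. All 68 arrays, 45101 probe sets, were quantile normalized together and log2 transformed with no offset. No 2 arrays were identical. Genes were named from the platform annotation, and 34958 probe sets had 1 symbol. Probe sets with at least 1 cell at or above the 20-copy signal (842.2) were kept, 17979 for 10789 genes, and the kept one with the highest mean stood for a gene. Differences are of means floored at that signal. Named members had at least 50% of the cells of a group of 3 or more at or above it, or passed the 2-fold rule. Of the adhesion and matrix lists, genes past that rule between AP-like cells were named. Intervals are exact (Clopper-Pearson) at 95%. Limits for a count of 0 are 3 cells divided by the number of cells, bound the share from above only, and do not match the ends of those intervals. Both cover counting error only. The number of arrays limits the precision.

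Members, lists and comparisons were chosen with earlier results of these data known. Cells were clustered by correlation with complete linkage. The markers were listed in the analysis plan, whereas the number of clusters was not. Before it was chosen, 9 settings were looked at, namely markers with and without the floor cut at 2, 3 and 4, and all probe sets cut at 3, 4 and 5. The class sizes in the study were known then, and the unfloored markers cut at 3, kept here, gave AP-like classes of nearly those sizes, but smaller IP-like classes. All probe sets cut at 4 gave 23 AP-like, 3 IP-like and 3 neuron-like cells at E11, closer to the study's sizes, with the cell 31i in a cluster of its own, and lost the Fn1 call of IP-like E11 cells. Members were in no clustering. Clusters are rebuilt and may differ from the study's types. Doublets were not looked for. Calculations used Python 3.11.15 and scipy, and the floored difference was tested on simulated data.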

Additional observations from a re-analysis of the deposited data

Results flagged for a closer look

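Among 33 sets of 4 to 8 cells looked at, 1 held a cell far from the others. Col27a1 had a signal of 6.85 in the IP-like E16 cell 75O, away from the other 7 cells but below the 20-copy signal. Chance gives such a cell in about 1 of 20 sets.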

How the results depend on the processing

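Between all E16 and all E11 cells, between AP-like cells of E16 and E11, and between IP-like and AP-like E16 cells, the count of 0 members past the 2-fold rule held under the settings run except 2, and for IP-like E16 cells also the block given at the end. The floor at the dap spike fixes a count of 0 here and below, since it lies at 11.95 and no member signal exceeded 12.95. Without a floor the counts were 14, 16 and 15, or 37.8%, 43.2% and 40.5% of members beside 31.1%, 37.7% and 41.5% of all genes, since signals far below 20 copies then count. By the 30-point rule they were 2, 5 and 2. For every named member, Itga6 and Col2a1 included, the difference in the share of AP-like cells kept its sign over 13 settings of scaling and clustering. These settings reuse the same cells, so a kept sign sets no member apart. The difference ranged from -79.9 to -54.6 points for Fn1, -65 to -40.3 for Col18a1, 15.8 to 40.7 for Itgb8, 24 to 35.3 for Itgb5 and 24.5 to 41.3 for Lamc1, the settings with 25 AP-like E16 cells included.

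Between IP-like and AP-like E11 cells the count of 1 became 2 with the lys spike scaling, 21 without a floor (56.8% beside 63.5% of all genes), 7 by the 30-point rule, and 0 with the floor at the dap spike, with classes from all probe sets, with all probe sets cut at 5, with markers cut at 2 or 4, and with floored markers cut at 2, 3 or 4. The Fn1 difference turned to -0.02 with markers cut at 2 and -0.07 with floored markers cut at 2. All probe sets cut at 3 gave no such class. Leaving out either IP-like cell kept it at 1.

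Against AP-like E11 cells, the counts of 0 for E12, neurosphere and NICD/p18 APs became 3, 3 and 6 as deposited, 3, 3 and 6 with the E11 and E16 arrays normalized apart, 17, 20 and 17 without a floor (45.9%, 54.1% and 45.9% of members beside 48.8%, 52.5% and 58.7% of all genes), and 4, 10 and 6 by the 30-point rule. The lys scaling gave 1 for neurosphere and 1 for NICD/p18 APs, and all probe sets cut at 3 gave 1 for NICD/p18 APs. Leaving out single cells gave 0 to 1, 0 to 1 and 0 to 3.

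Against E12 APs, the count of 1 for neurosphere APs became 7 as deposited (19.4% beside 16.6% of all genes), 7 with arrays normalized apart (17.1% beside 16.4%), 0 with the dap floor, 22 without a floor (59.5% beside 56.4%), 0 with the mean over probe sets and 13 by the 30-point rule, and 0 to 2 without single cells. The count of 3 for NICD/p18 APs became 8 as deposited (22.2% beside 21.6%), 7 with arrays normalized apart (17.1% beside 20.7%), 0 with the dap floor, 22 without a floor (59.5% beside 63.1%), 2 with the mean over probe sets, 2 with the lys scaling and 8 by the 30-point rule, and 2 to 4 without single cells. The causes were not tested beyond what the settings themselves set. The 30-point rule and every number of clusters, the one kept included, were chosen after seeing the data. So was a replicate block on the number in a cell's name (41 in 41G), which the labels do not explain and E11 and E16 cells do not share. With this block, IP-like against AP-like cells gave 1 member at E16, Itgb8 lower by a difference of -1.05 over 4 shared numbers, and 3 at E11 over 2 shared numbers, Fn1 higher and Col18a1 and Itga6 lower, or 2.70% and 8.11% of members beside 1.64% and 7.04% of all genes. Whether these numbers pair the cells was not tested. The 20-copy signal limits what is read: a gene below it is not shown to be absent.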
